A study of Mus musculus with 12 samples.

Results

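The subject is the difference between Card14-/- and wild type (WT) mice in how ear skin RNA responded to imiquimod (IMQ), a drug that activates the receptor TLR7 and is used to induce psoriasis-like inflammation. The response difference of a gene is IMQ minus untreated in Card14-/- less IMQ minus untreated in WT, on the log2 signal scale. It is the sum of a treated part, Card14-/- minus WT in IMQ-treated skin, and an untreated part, WT minus Card14-/- in untreated skin. It rests on 5 of the 12 arrays of the series: Card14-/- IMQ repeats 1 and 2, WT IMQ, untreated Card14-/- and untreated WT. A gene was called if limma's p for it, Benjamini-Hochberg adjusted over all genes, was under 0.05 and the response difference was at least 1 log2 unit. A called gene counted as mostly treated when the treated part made up more than 0.5 of the difference. Of 24080 genes tested, 2121 met both conditions, 8.81% of all. Of the 24080, 15945 carry a gene name, and the rest are clone, predicted or accession entries that are counted as genes here.

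All mice were C57BL/6J, with no age given in the labels. Treated mice received 62.5 mg of a cream with 5% IMQ on the ears once and whole-ear skin was taken after 4 h, while control mice were untreated and had no vehicle cream. Each array held RNA pooled from 6 to 8 mice. Tlr9-/-, Tlr7-/- and Tlr7-/-Tlr9-/- mice, IMQ-treated and untreated, supplied the other 7 arrays and serve here for comparison only. The labels name neither how the Card14 allele was made nor a cell type to which the knockout is limited.

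CARD14 is a scaffold protein made mainly by keratinocytes. When active it assembles with BCL10 and MALT1 into a signalling complex that leads to activation of NF-kB and to the transcription of chemokines and cytokines, and activating variants of it cause psoriasis and related skin disease in people. IMQ acts on TLR7 of plasmacytoid dendritic cells and macrophages, which answer with type I interferon. Interferon in turn induces the chemokines CXCL9 and CXCL10, which attract T cells through the receptor CXCR3.

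The arrangement of the arrays limits the comparison. Both Card14-/- IMQ arrays lay on slide 2, scanned separately, while the other 3 arrays of the contrast lay on slide 1, so slide and treated Card14-/- skin cannot be told apart in the treated part. Tlr7-/-Tlr9-/- IMQ on slide 2 against Tlr7-/- IMQ on slide 1 is a pair with the same placement and no array of the contrast, and is called the slide pair below. Its sides also differ in Tlr9 genotype and in mice, so its values are not those of slide alone. Tlr9-/- IMQ also lay on slide 1 and was not used for the slide pair. Its untreated and treated Tlr7-/- arrays differed in sex-linked genes: Eif2s3y, a Y-linked gene, read 11.04 in IMQ-treated and 2.03 in untreated Tlr7-/- skin. On the 5 arrays of the Card14-/- contrast Eif2s3y lay between 10.33 and 10.57, and Xist, the RNA of the inactive X chromosome, between 6.55 and 6.87. The processed signal had a 75th percentile of 779 and 731 on the Card14-/- IMQ arrays, 527 on the WT IMQ array and 1070 and 1234 on the untreated Card14-/- and WT arrays. The repeat Card14-/- arrays differed with a median SD of 0.048 log2 units, against 0.054 between repeated spots of 1 probe within an array, and the labels do not say whether they hold separate pools. They are therefore treated as repeat measurements, and the p-values measure only the spread between such arrays. The untreated pools of the 5 genotypes, which differ in genotype as well as in mice, had a median SD of 0.148 log2 units, larger than the spread on which the p-values rest.

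The targeted gene was checked first. Card14 had a log2 signal of 9.68 and 9.63 in the Card14-/- IMQ arrays and 11.27 in the WT IMQ array, and 9.89 in untreated Card14-/- against 10.83 in untreated WT skin. It was lower in both Card14-/- conditions and remained well above background, and no label says whether this probe (chr11:119206302-119206361, mm9, plus strand) lies within the deleted part. Tlr7 and Tlr9 were similar on the 5 arrays, with treated parts of -0.02 and -0.11.

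Of all genes, 1243 (5.16%) had a higher response in Card14-/- than in WT and 1285 (5.34%) a lower one. The difference was mostly treated in 1054 of the higher (4.38% of genes tested) and 1067 of the lower ones (4.43%). A gene name was carried by 597 of these 1054 and 472 of these 1067, against 15945 of all 24080. The median response difference of all genes was 0.11. The counts called in gene lists below are to be set against the 5.16% and 5.34% of all genes. Among the mostly treated genes with a higher response, the median Card14-/- response was 0.21 and the median WT response -1.20. Among those with a lower response, the medians were -0.01 in Card14-/- and 1.53 in WT. At the edge of the mostly treated class, Haglr and Exoc7 lay just inside with treated shares of 50.05% and 50.11%, and Capn6 and Slc45a2 just outside with 49.4% and 49.2%.

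**Figure D1:**
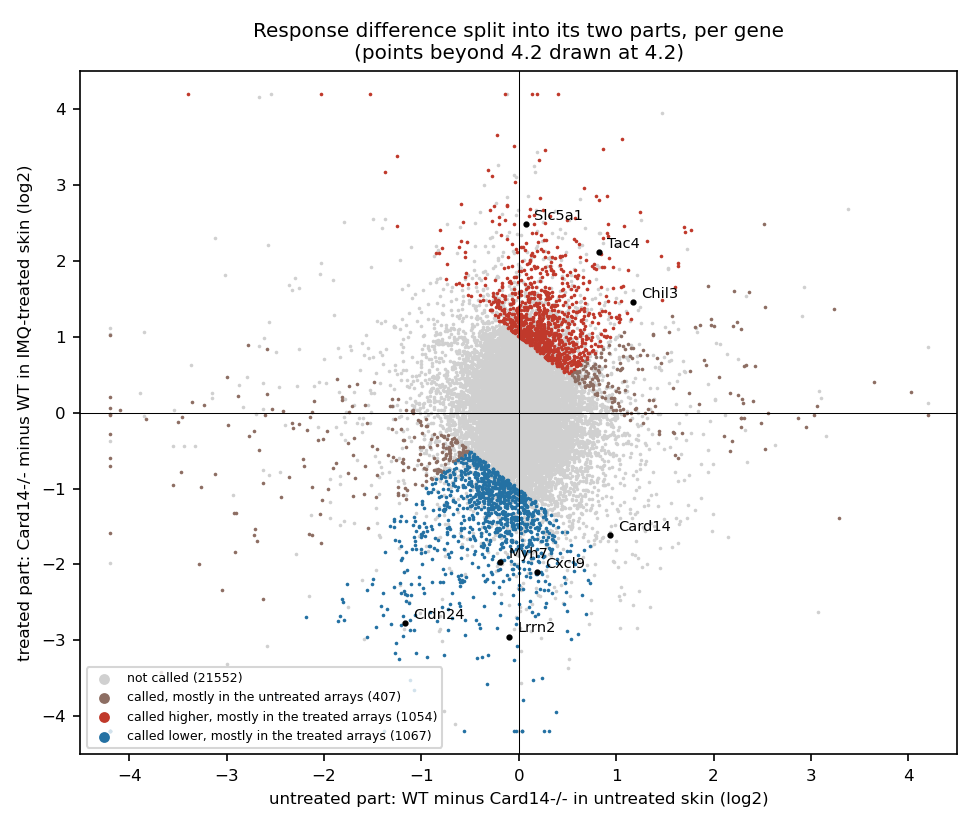
Untreated part (x axis, WT minus Card14-/- in untreated skin) against treated part (y axis, Card14-/- minus WT in IMQ-treated skin) of the response difference of each gene, in log2 units. Red and blue points are the 1054 and 1067 called genes whose difference lies mostly in the treated arrays, brown points the other called genes, and grey points genes that were not called.

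The responses of the other 3 genotypes are set beside those of Card14-/- and WT. Among the 1054 genes with a higher, mostly treated response, the Card14-/- response lay above those of the other 4 genotypes for 67.5% and the WT response lay below those of the other 4 for 79.9%. Both held for 51.9%, against 21.9% of all genes. Among the 1067 genes with a lower response, Card14-/- was the lowest of the 5 genotypes for 60.9% and WT the highest for 89.1%. The same shares over all genes, taken in the direction of each gene's difference, were 45.2% for Card14-/- and 54.3% for WT. The members were chosen for the distance between these responses, so the shares are a description. For 15.6% of the higher and 7.40% of the lower members, Card14-/- stood outermost while WT lay within the other genotypes. Over all genes this share was larger, 23.3%.

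The calls depended on all 4 repeat arrays. Without any 1 of them, or with the 5 arrays of the contrast alone, limma called 0 genes, and 9377 to 10273 genes had an unadjusted p under 0.05. With slide fitted as a block over the WT, Card14-/-, Tlr7-/- and Tlr7-/-Tlr9-/- arrays, 41 genes had a higher and 81 a lower response, of which 38 and 65 were mostly treated. This fit assumes that Tlr7-/- and Tlr7-/-Tlr9-/- skin respond alike. Any effect of Tlr9 or of the pools on their difference is counted as slide, so slide block values are not corrected for slide alone. With the mean of WT and Tlr9-/- in place of WT, 0 genes were called higher and 2 lower by limma, and 6890 genes had an unadjusted p under 0.05. Scaling to the 75th percentile in place of quantile normalisation gave 775 higher and 1623 lower calls, so the share of higher among called genes was 32.3% there against 49.2% in the main fit. It was 31.9% with normexp background correction and 37.7% in the deposited log2 table.

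The 12 largest mostly treated rises among named genes had response differences from 2.38 to 2.95, with adjusted p from 0.0117 to 0.0158. For 11 of the 12 the WT signal was lower after IMQ than before it, the exception being Krtap1-3. The same sign was found against Tlr9-/- in all 12, with differences from 0.49 to 4.42. That comparison uses the same Card14-/- arrays on which the genes were chosen, so agreement in sign is partly built in. In the slide pair 11 of the 12 were higher on slide 2, by up to 2.42. With the slide block 1 of the 12, Chil3, passed the threshold, and Csta2 and Krtap1-3 changed sign.

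Genes of protease inhibitors and of a pore-forming protein were among these rises. Serpinb3a, a serpin of squamous epithelia, had a log2 signal of 8.50 and 8.55 in Card14-/- IMQ skin and 6.16 in WT IMQ skin, with 7.98 in untreated Card14-/- and 8.15 in untreated WT skin. Only the WT IMQ array was low. Its response difference was 2.54 ± 0.16 (SE, adjusted p = 0.0136), of which 2.36 was treated part, a 5.14-fold higher level in treated Card14-/- skin. Csta2, a cystatin A relative that inhibits cysteine proteases, read 9.48 and 9.31 in Card14-/- IMQ and 7.39 in WT IMQ skin, with 8.09 and 8.79 in untreated Card14-/- and WT skin. It was above its untreated level in Card14-/- and below it in WT, and its difference was 2.70 ± 0.15 (adjusted p = 0.0134). Gsdmc, a gasdermin, a family of membrane pore formers, read 7.65 and 7.76 in Card14-/- IMQ and 5.89 in WT IMQ skin, against 7.40 and 8.00 in untreated Card14-/- and WT skin. Its response was -2.42 in Tlr7-/- skin, lower than the -2.11 of WT, so WT was not outermost for it. Serpina3j, a clade A serpin, had a difference of 2.44 ± 0.16.

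Among the other rises, Slc5a1, the sodium-coupled glucose transporter SGLT1, read 7.85 and 7.80 in Card14-/- IMQ skin and 5.34 in WT IMQ skin, while the untreated values of 6.86 in Card14-/- and 6.93 in WT nearly coincided. Its difference of 2.55 ± 0.16 was 97.3% treated part. Tac4, which encodes the tachykinin hemokinin, read 7.79 and 7.82 in Card14-/- IMQ and 5.69 in WT IMQ skin, and 8.06 and 8.88 in untreated Card14-/- and WT skin. It had the largest difference of the 12, 2.95 ± 0.09. Sgpp2, a phosphatase of sphingosine-1-phosphate, differed by 2.38 ± 0.08, Manea, a Golgi mannosidase, by 2.85 ± 0.06, and Secisbp2l, a relative of the selenocysteine insertion factor, by 2.50 ± 0.21. Chil3, the chitinase-like protein Ym1 of myeloid cells, read 7.83 and 7.76 in Card14-/- IMQ and 6.33 in WT IMQ skin, with 6.07 and 7.25 in untreated Card14-/- and WT skin. Its untreated skin ran the other way, so that 55.5% of the difference of 2.63 ± 0.09 was treated part.

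**Figure D2:**
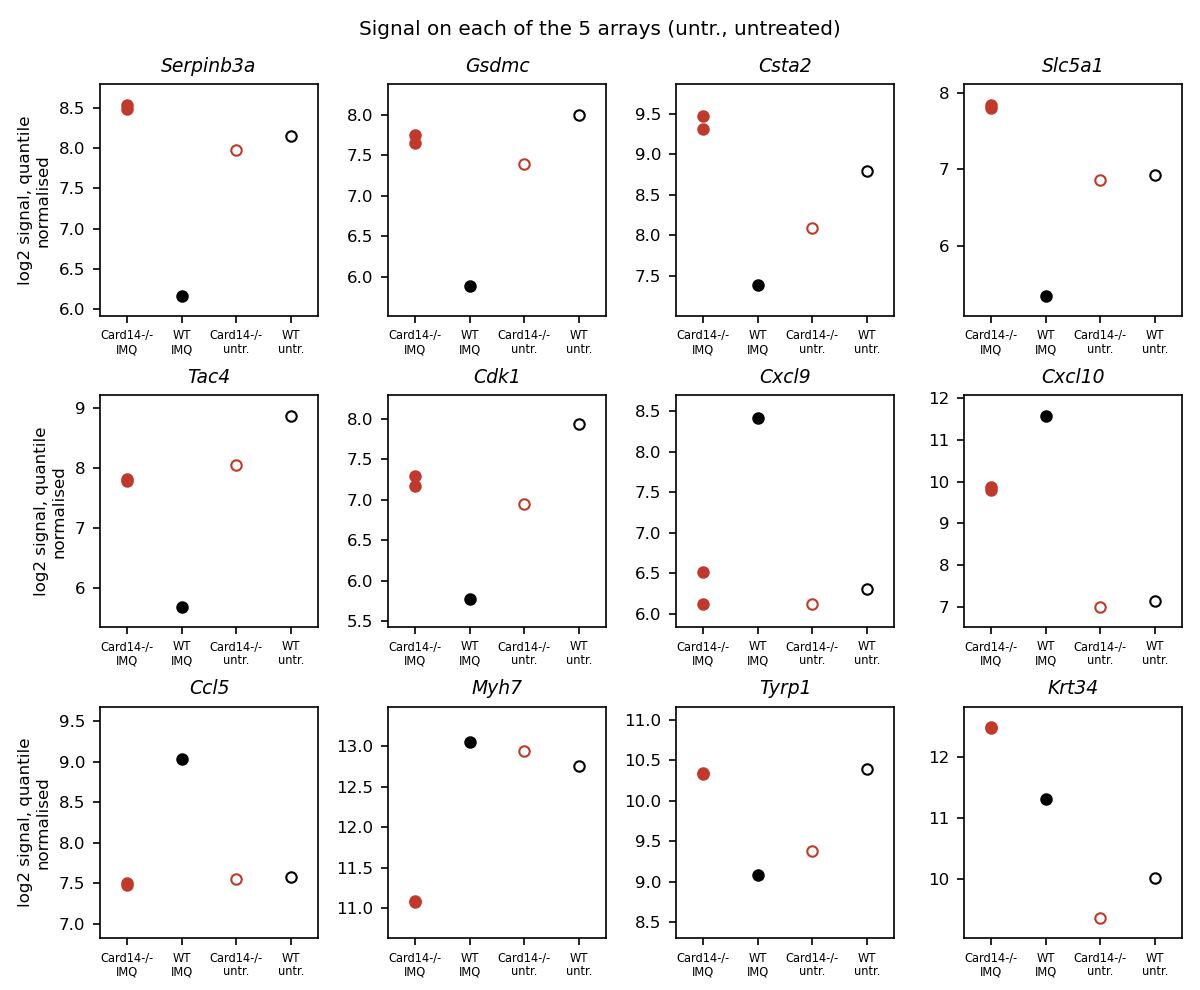
Quantile-normalised log2 signal of 12 genes on each of the 5 arrays, with IMQ-treated Card14-/- (2 arrays) and WT at the left and untreated Card14-/- and WT at the right. Serpinb3a, Gsdmc, Csta2, Slc5a1, Tac4 and Cdk1 were lowest on the WT IMQ array, and Cxcl9, Cxcl10 and Ccl5 were highest on it.

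For 5 more genes the WT IMQ array alone was below background among the treated arrays, so only a lower limit of the fold can be given, taken against the lowest signal well above background on that array. E2f4, a cell cycle transcription factor, was at least 5.14-fold higher in treated Card14-/- than in treated WT skin (adjusted p of the response difference 0.0139). Usp44, F2rl1, Thoc1 and Prl3b1 were at least 3.42-fold to 4.16-fold higher. F2rl1 encodes the protease-activated receptor PAR2 of keratinocytes. In the other direction, Clca3b was at least 10.6-fold, Zfp759 at least 9.61-fold and Sntg1 at least 6.65-fold lower in treated Card14-/- skin, where both arrays were below background. Sntg1 read 6.70 in WT IMQ skin and was below background on the other 4 arrays of the contrast, so that 1 array carried the signal. Nxnl2 and Foxd4 were at least 4.71-fold and 4.30-fold lower. Against Tlr9-/-, again with the same Card14-/- arrays, the response difference had the same sign in all 5 of the rises. Among these 5 falls it had the same sign in 2, with values between -3.68 and 2.78. In the slide pair, too, the sign was the same in 5 of the rises and 2 of the falls.

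The largest falls shared a property of their probes, so the probe sequences are shown before the values. Of the 12 largest mostly treated falls among named genes, 11 were read on a 60-base probe with a run of at least 9 purines (A or G), against 1 of the 12 largest rises. The probe stretches below are 30 bases of the deposited design, in the 5′ to 3′ direction, with the longest purine run in capitals. The first 6 belong to falls and the last 3 to rises.
Cldn24: GAGAGAGAAGGAtattcaaggaatgtctag
Mrgprg: GAGAGAAGAGAGAGctaagcttccaaagta
Prex2: tgctaggttGGAGAGAGAGGAGtgaatgag
Olfr1097: tagagttatGAAGAAGAGAGAGtgcaccca
Vpreb2: gagagagtGGGAAGGAGAAAAGtcgtatac
Rergl: AAGGAGAAGAGAAGAcccagtgggtctaaa
Slc5a1: gacactacttgatAGGAcagagtaaatgcc
Gsdmc: cctggatacatttGAGAtattgcaccatag
Csta2: agcagcaaattctAAAGtgtcctgactctt
On mm9 these probes lie at chr8:48916746-48916805 for Cldn24, a claudin, chr7:150949651-150949710 for Mrgprg, a Mas-related receptor, chr1:11288511-11288570 for Prex2, a Rac exchange factor, and chr2:86730390-86730449 for Olfr1097, an odorant receptor. They lie at chr16:17981114-17981173 for Vpreb2, a surrogate light chain of B cell precursors, and chr6:139441759-139441818 for Rergl, a Ras-like protein. The stretches of the 3 rises come from probes at chr5:33504561-33504620, chr15:63608169-63608228 and chr16:36257452-36257511.

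Cldn24 read 10.15 and 10.31 in Card14-/- IMQ and 13.00 in WT IMQ skin, with 8.67 in untreated Card14-/- and 7.50 in untreated WT skin. The signal was higher after IMQ in both genotypes and more so in WT, giving a difference of -3.94 ± 0.22 (adjusted p = 0.0134). Mrgprg read 12.65 and 12.72 in Card14-/- IMQ and 15.09 in WT IMQ skin, with 10.89 and 9.74 in untreated Card14-/- and WT skin, a difference of -3.55 ± 0.11. Rhox3a, Tmem52b, Prex2, Olfr1097, Vpreb2, Lrrn2, Rergl, Olfr699, Lrrc9 and Timm8a2 completed the 12, with differences between -3.87 and -2.61. In the slide pair all 12 were lower on slide 2, by up to 1.43. With the slide block 3 of the 12 passed the threshold. In 8 of the 12, the IMQ levels of the 5 genotypes fell in the order in which the 75th percentile of array signal rose, from WT over Tlr9-/-, Tlr7-/- and Tlr7-/-Tlr9-/- to Card14-/-.

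Purine runs of at least 9 bases were found in the probes of 13.7% of all genes, 27.9% of the mostly treated falls and 12.9% of the mostly treated rises. The median treated part was 0.11 for the 11895 genes with runs up to 5 bases and -0.80 for the 139 genes with runs of 18 or more. For these 139 genes the median response was 0.63 in Card14-/- and 1.72 in WT. Of the falls, 28.3% kept the order of array signal across the 5 genotypes, against 3.59% of all genes, and 15.6% of the rises kept the opposite order, against 5.40% of all genes. WT and Card14-/- are the ends of that order and the members were chosen for their difference, so a higher share among them is built in and is a description only. The part of probe sequence and array signal in these differences was not tested. Without genes read on such probes, an alternative added after seeing the data, 918 rises and 769 falls were mostly treated.

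**Figure D3:**
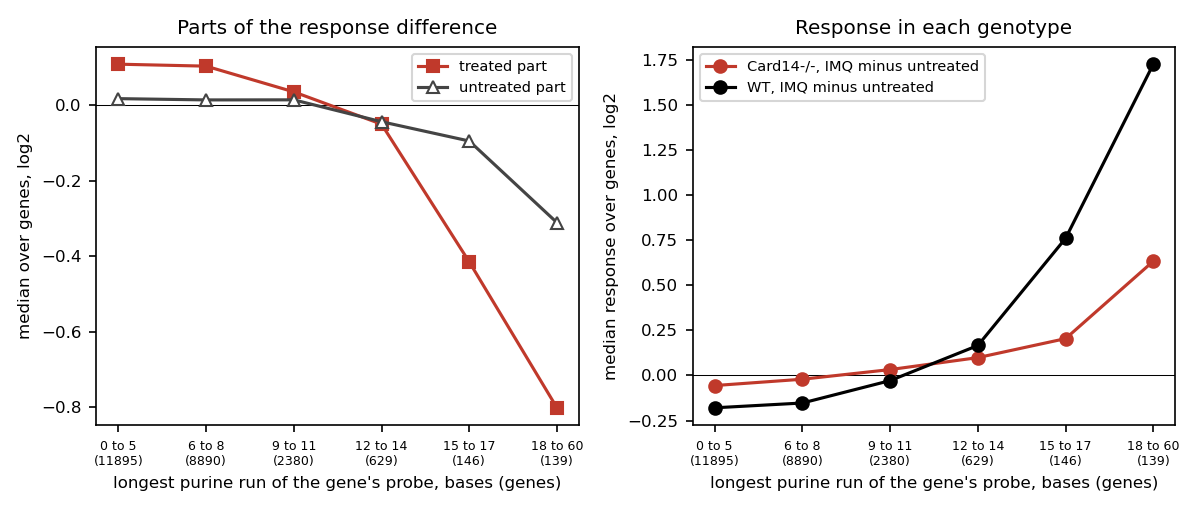
Median over genes, in log2 units, against the longest purine run of the gene's probe in bases, with the number of genes under each band. The left panel shows the treated and untreated parts of the response difference, and the right panel the response in Card14-/- and in WT, which was 0.63 and 1.72 for runs of 18 bases or more.

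The 12 largest falls on probes with shorter runs were chosen after their values were seen. Lrrc9, Myh7, Nmrk2, Olfr819, Xirp2, Lncpint, Pcbd2, Ccdc85a, H2-Ob, Lrrc71 and Cxcl9 were among them. The 12 had differences from -2.64 to -1.91 and limma adjusted p from 0.0133 to 0.0431. In the slide pair 10 of the 12 were lower on slide 2, and with the slide block 1 of the 12 passed the threshold. Only 3 of these 12 kept the order of array signal. Myh7, Nmrk2 and Xirp2 are genes of striated muscle. H2-Ob, a chain of the class II accessory molecule H2-O of B cells, read 4.56 and 4.78 in Card14-/- IMQ and 6.73 in WT IMQ skin, with 4.78 and 4.88 in untreated Card14-/- and WT skin. The WT IMQ array stood alone. Lncpint, a long non-coding RNA induced by p53, read 8.43 and 8.64 in Card14-/- IMQ and 10.695 in WT IMQ skin, with 8.40 and 8.52 in untreated skin of Card14-/- and WT. It was read on 2 probes, both with the same sign.

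Of 27 chemokines of monocytes and lymphocytes 3 were called higher and 3 lower, against 5.16% and 5.34% over all genes. The response difference was positive in 16 of the 27, with a median of 0.21 against 0.11 over all genes. The median treated part was -0.10. The largest positive difference of the list was 1.49 for Ccl28, whose probes disagreed, the other giving -1.12. The 3 chemokines called lower, Cxcl9, Cxcl10 and Ccl5, are interferon-inducible. Cxcl10, a ligand of CXCR3, read 9.80 and 9.88 in Card14-/- IMQ and 11.59 in WT IMQ skin, with 6.99 and 7.13 in untreated Card14-/- and WT skin. It was induced in both genotypes, by 2.85 in Card14-/- and 4.45 in WT, a difference of -1.61 ± 0.10 (adjusted p = 0.0134). Cxcl9, the second such ligand, read 6.51 and 6.12 in Card14-/- IMQ and 8.41 in WT IMQ skin, with 6.12 and 6.31 in untreated Card14-/- and WT skin. Only the WT IMQ array was high, and the difference was -1.91 ± 0.31 (adjusted p = 0.0319). Ccl5, which attracts T cells and monocytes, read 7.50 and 7.48 in Card14-/- IMQ and 9.03 in WT IMQ skin, with 7.56 and 7.57 in untreated Card14-/- and WT skin, a difference of -1.52 ± 0.11 (adjusted p = 0.0144). For these 3 genes the untreated levels of the genotypes nearly coincided and the treated part made up the whole difference.

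In all 3 of the other genotypes the response of these chemokines was smaller than in WT. The Cxcl10 response was 1.38 in Tlr9-/-, -0.30 in Tlr7-/- and -0.49 in Tlr7-/-Tlr9-/- skin, so that Card14-/- had the second highest of 5. The Ccl5 response was -0.46 in Tlr9-/- and 0.50 in Tlr7-/- skin, against 1.46 in WT. With the mean of WT and Tlr9-/- as comparator the differences were -0.07 for Cxcl10, 0.35 for Cxcl9 and -0.56 for Ccl5, none past the threshold. With the slide block they were -1.42, -1.06 and -0.77, with adjusted p of 0.0588, 0.222 and 0.0951.

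Cxcl10 is a textbook target of both NF-kB and interferon signalling, and the RefSeq promoter table (GRCm38.p6) was searched for it on both strands. The kappa-B motif was written as GGANNTTCC and the interferon-stimulated response element as GAAANNGAA. The 250 bases before its start, chr5:92348890-92349139 on the minus strand, hold 1 match of each, shown in capitals, the response element first. The kappa-B match reads the same on both strands.
Cxcl10: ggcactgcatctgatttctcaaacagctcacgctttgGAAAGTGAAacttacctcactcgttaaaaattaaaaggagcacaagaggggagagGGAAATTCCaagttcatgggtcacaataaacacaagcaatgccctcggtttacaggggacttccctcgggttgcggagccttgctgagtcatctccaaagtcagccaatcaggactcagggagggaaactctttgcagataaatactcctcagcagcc
Among 32851 promoters of this length, 3.59% hold the kappa-B letters and 7.13% the response element. Bst2 holds 2 overlapping matches of the response element and 0 of kappa-B, and the Cxcl9 window holds 1 of the response element and 0 of kappa-B. The matches are a description of these letters only.

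Interferon-stimulated genes as a list stood lower in treated Card14-/- than in treated WT skin, but the response difference was small. Of 51 tested, 0 were called higher and 1 lower, Bst2, which encodes the antiviral tetherin. The treated part was negative in 46 of the 51 (10169 of 24080 over all genes), with a median of -0.56 against 0.09 over all genes. The median untreated part was 0.24, so untreated Card14-/- skin also stood lower, and the median response difference was -0.19 against 0.11 over all genes. With the mean of WT and Tlr9-/- as comparator the list's median was 0.23. Bst2 read 10.87 and 10.84 in Card14-/- IMQ and 11.59 in WT IMQ skin, with 10.09 and 9.75 in untreated Card14-/- and WT skin, a difference of -1.08 ± 0.06 (adjusted p = 0.0134). Gbp7 at -1.38 (adjusted p = 0.0523) and Gbp2 at -0.95, both interferon-inducible GTPases, were not called.

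The median response of the 51 genes was 0.84 in Card14-/-, 1.19 in WT, 0.21 in Tlr9-/-, -0.13 in Tlr7-/- and -0.26 in Tlr7-/-Tlr9-/- skin. Card14-/- was thus second after WT, and its median difference from Tlr9-/- was 0.80. The treated part was negative in 14 of 16 dendritic and Langerhans cell markers, 12 of 14 T cell markers and 17 of 18 monocyte and macrophage markers. This was not particular to cells that make or receive these signals. It was also negative in 14 of 15 adipocyte markers, 13 of 15 endothelial markers and 30 of 31 skeletal muscle genes, but in 3 of 44 hair follicle genes. The median treated part of the slide pair was -0.18, -0.30 and -0.08 for the dendritic, T cell and monocyte lists, against 0.06 over all genes. For the monocyte and macrophage markers the response difference itself was positive in 11 of 18, with a median of 0.06 and a median untreated part of 0.49, and 1 was called higher and 0 lower. Of the dendritic markers 0 were called higher and 3 lower, against 5.16% and 5.34% over all genes. The 3 were Ccr7 at -1.25, Siglech, a receptor of plasmacytoid dendritic cells, at -1.18, and Bst2, the interferon-stimulated gene given above, at -1.08. The treated part of Siglech was -0.60, and limma did not call it with scaling to the 75th percentile (adjusted p = 0.0506). No T cell marker was called (0 of 14), with a median response difference of -0.68. In RNA of whole skin, fewer cells of a type and less RNA per cell cannot be told apart, and the part of these markers in the chemokine values was not tested.

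**Figure D4:**
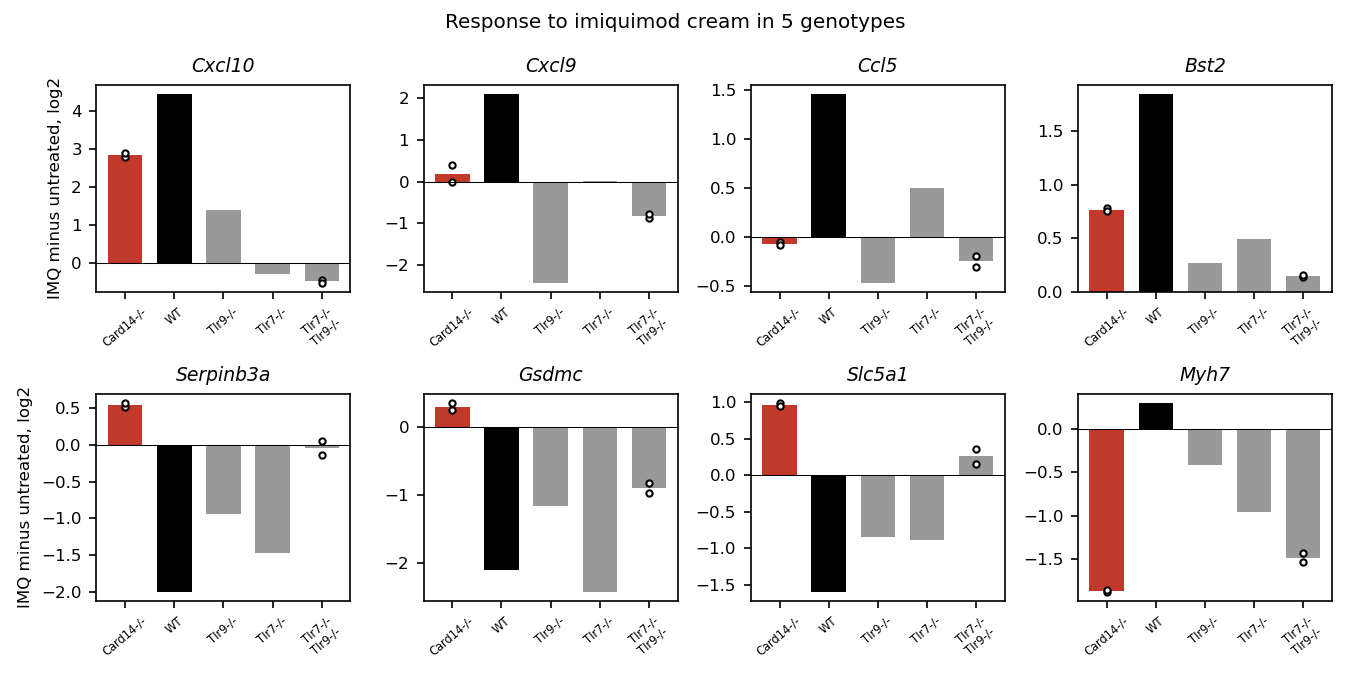
Response, IMQ minus untreated in log2 units, of 8 genes in 5 genotypes, with Card14-/- in red, WT in black and the other genotypes in grey. Open circles are the responses from each repeat IMQ array where there are 2, and the WT bar is the highest for Cxcl10, Cxcl9, Ccl5, Bst2 and Myh7.

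Early NF-kB target genes as a list had a median response difference of 0.06, against 0.11 over all genes. Of 33 tested, 4 were called higher and 0 lower. The treated part was negative in 18 of the 33, with a median of -0.05 against 0.09 over all genes. The median response was 0.57 in Card14-/- and 0.72 in WT. Ccl20, the ligand of CCR6 made by keratinocytes, read 10.98 and 10.94 in Card14-/- IMQ and 10.70 in WT IMQ skin, with 5.59 and 6.39 in untreated Card14-/- and WT skin. It was strongly induced in both genotypes, and most of its difference of 1.06 ± 0.08 was untreated part. The differences of Il6 and Il1b, too, lay mostly in the untreated arrays. For Il1b the treated part was -0.59, opposite in sign to the difference of 1.04. Il6 was below background in untreated Card14-/- skin, and in IMQ skin it read 5.99 and 6.23 in Card14-/- and 5.85 in WT. Ptgs2, the inducible cyclooxygenase, was the only mostly treated gene of this list, at 7.40 and 7.28 in Card14-/- IMQ and 6.38 in WT IMQ skin, with 5.22 and 5.42 in untreated Card14-/- and WT skin. Cxcl1, a chemokine of neutrophils, read 10.49 and 10.60 in Card14-/- IMQ and 10.62 in WT IMQ skin.

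Components of the CARD14, BCL10 and MALT1 pathway differed little on the brightest probe of each gene. The probes of Bcl10 disagreed, at 0.49 and -1.29, and those of Malt1 ranged from -0.19 to -1.10. Of 20 tested, 0 were called higher and 1 lower, Traf6, a ubiquitin ligase downstream of MALT1, at -1.33. The 4 other probes of Traf6 disagreed, at 0.45, 0.27, -0.06 and -0.76, and none of them reached the size limit of 1. Ikbkg (NEMO) at 0.89, likewise with disagreeing probes, Card14 itself at -0.68 and Traf3ip2 (ACT1) at 0.63 did not reach the size limit of 1.

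Among the immediate early genes, whose transcription a stimulus switches on before new protein is made, 2 of 38 were called higher and 1 lower. Fos read 12.38 and 12.39 in Card14-/- IMQ and 11.47 in WT IMQ skin, with 10.33 and 10.63 in untreated Card14-/- and WT skin, a difference of 1.21 ± 0.06. Its AP-1 partner Jun ran the other way, at 13.98 and 13.97 in Card14-/- IMQ and 14.80 in WT IMQ skin, with 13.63 and 13.34 in untreated Card14-/- and WT skin, a difference of -1.12 ± 0.07. Fos and Jun were above their untreated level in both genotypes. Atf3 was higher by 1.02, mostly in the untreated arrays.

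Of 16 cytokines and receptors of the IL-23/IL-17, IL-20 and IL-36 families, 3 were called higher and 1 lower. Il1f9 and Il1f8, the IL-36 gamma and beta of keratinocytes, had differences of 1.20 and 1.21. Il1f9 read 9.37 and 9.29 in Card14-/- IMQ and 8.37 in WT IMQ skin, with 9.41 and 9.65 in untreated Card14-/- and WT skin, so that only the WT IMQ array was low. Il22ra1, the keratinocyte receptor for IL-22, was lower by 2.27 and was read on a probe with a purine run of 9 bases. Il19 was below background in WT IMQ skin and most of its difference was untreated part. Among IL-1 family and inflammasome genes, Il1rn, the IL-1 receptor antagonist, was higher by 1.03, although its other probe gave 0.20.

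Keratinocyte genes moved in both classes of arrays. Of 34 antimicrobial and stress genes 10 were called higher and 0 lower, but 4 of the 10 were mostly treated, and the median treated part of the list was -0.04. Saa3, an acute phase protein, read 7.40 and 7.37 in Card14-/- IMQ and 7.11 in WT IMQ skin, with 5.32 and 9.34 in untreated Card14-/- and WT skin. Its difference of 4.30 ± 0.20 therefore lay almost wholly in the untreated arrays. S100a8, a calcium-binding alarmin, was higher by 2.41, also mostly in the untreated arrays, while its relative S100a7a was, of the 5 arrays of the contrast, above background on the Card14-/- IMQ arrays only and is given no size. Of 49 differentiation genes 6 were called higher and 1 lower, all of them mostly treated. Klk7, a protease that sheds the horny layer, read 12.12 and 12.08 in Card14-/- IMQ and 10.97 in WT IMQ skin, with 11.41 and 11.90 in untreated Card14-/- and WT skin, a difference of 1.62 ± 0.09. With the slide block it was -0.23. Rptn, for which WT IMQ skin was below background, and Dsc1, whose probes disagreed, were the other large rises, and Krt77, a keratin of sweat ducts, was lower by 1.51.

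A minority of cell cycle genes had a higher response in Card14-/- skin. Of 28 tested, 5 were called higher and 0 lower, all mostly treated. The treated part was positive in 24 of the 28 (13909 of 24080 over all genes). Cdk1, the kinase of mitotic entry, read 7.29 and 7.18 in Card14-/- IMQ and 5.78 in WT IMQ skin, with 6.95 and 7.94 in untreated Card14-/- and WT skin, a difference of 2.44 ± 0.10. Aurkb, Mcm2 and Bub1b, which act in mitosis, replication licensing and the spindle checkpoint, were higher by 1.21, 1.19 and 1.17. The median response was -0.10 in Card14-/-, -0.57 in WT, -0.74 in Tlr9-/-, -0.68 in Tlr7-/- and -0.24 in Tlr7-/-Tlr9-/- skin. The median treated part, 0.44, was the same as the 0.44 of the slide pair.

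Hair follicle and melanocyte genes were called in 1 direction only. Of 44 hair follicle genes 14 were called higher and 0 lower, 10 of them mostly treated, and the median response was 2.14 in Card14-/- and 1.15 in WT. Krt34, a hair shaft keratin, read 12.48 and 12.51 in Card14-/- IMQ and 11.32 in WT IMQ skin, with 9.36 and 10.01 in untreated Card14-/- and WT skin, a difference of 1.83 ± 0.13. The hair shaft genes Krtap1-3, Krt86 and Krtap4-16 had differences of 2.88, 1.72 and 1.64, while Dsg4 was below background in both untreated pools and is given no size. The pools differed widely in these genes: the median response of the list was -0.59 in Tlr9-/-, -4.40 in Tlr7-/- and -0.83 in Tlr7-/-Tlr9-/- skin. With the slide block, which draws on that Tlr7-/- pair, the median difference was -1.52 in place of 0.90. The part of hair growth stage in these values was not tested.

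Of 11 melanocyte markers 7 were called higher and 0 lower, 5 of them mostly treated, and the median response difference was 1.41. Tyrp1, an enzyme of melanin synthesis, read 10.34 and 10.33 in Card14-/- IMQ and 9.08 in WT IMQ skin, with 9.37 and 10.39 in untreated Card14-/- and WT skin, a difference of 2.26 ± 0.08. The genotypes were in opposite order in treated and untreated skin. Slc24a5, an ion exchanger of the melanosome, had a difference of 2.11, and Oca2 was below background in WT IMQ skin and is given no size. For this list the median was 1.45 with the slide block, and the median treated part of the slide pair was -0.04.

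Skeletal muscle genes, too, were called in 1 direction only. Of 31 tested, 0 were called higher and 9 lower, all mostly treated, and the treated part was negative in 30. Myh7, the slow myosin heavy chain, read 11.07 and 11.09 in Card14-/- IMQ and 13.05 in WT IMQ skin, with 12.94 and 12.76 in untreated Card14-/- and WT skin. The treated Card14-/- arrays alone were low, and the difference was -2.16 ± 0.10 (adjusted p = 0.0133). Tnnt1, the slow troponin T, differed by -1.84 and Myl2, a slow myosin light chain, by -1.81, and Myh2 by -1.89 on 1 of 3 probes that disagreed. The median response was -0.81 in Card14-/-, 0.10 in WT, -0.28 in Tlr9-/-, -0.12 in Tlr7-/- and -0.68 in Tlr7-/-Tlr9-/- skin, so both genotypes on slide 2 stood lowest. With the slide block the Myh7 difference was -1.64 (adjusted p = 0.0573). How much muscle each ear sample held was not tested.

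**Figure D5:**
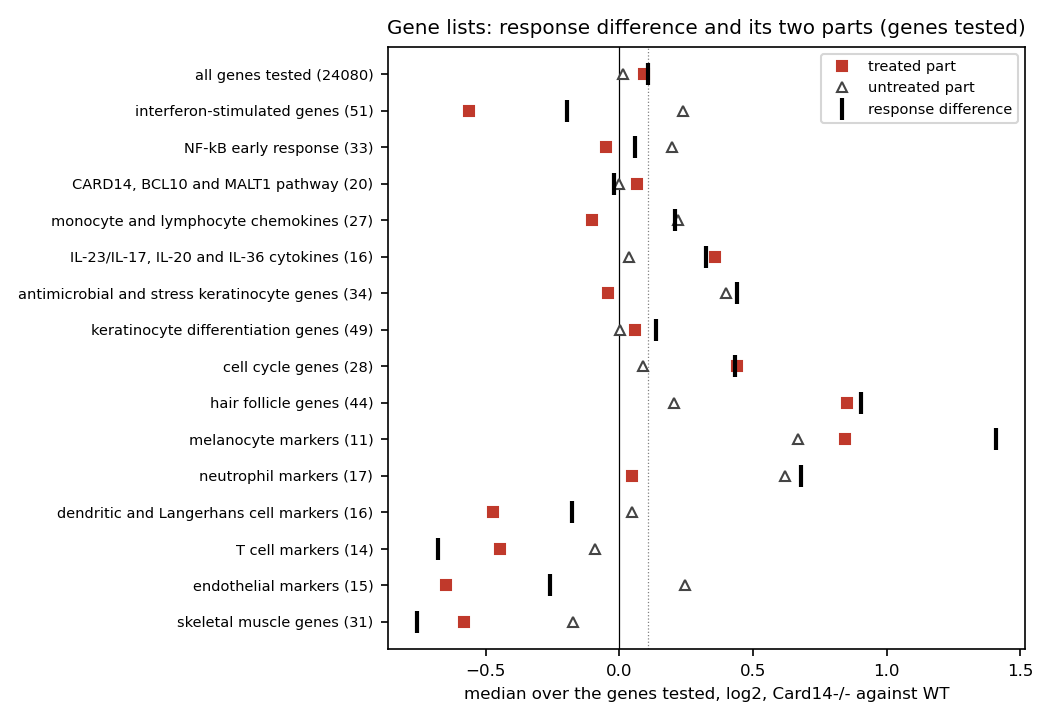
Median over the tested genes of each list of the response difference (black bars), its treated part (red squares) and its untreated part (open triangles), in log2 units, Card14-/- against WT. The dotted line is the median response difference of all genes, 0.11, and the number of genes tested stands after each name.

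The called genes that did not belong to the mostly treated class had their difference mostly in the untreated arrays. Each genotype had a single untreated array, so pool and genotype cannot be told apart there. Hmox1, heme oxygenase, read 13.39 and 13.42 in Card14-/- IMQ and 13.53 in WT IMQ skin, and 12.91 and 9.41 in untreated Card14-/- and WT skin. Only untreated WT skin was low, and the difference was -3.62 ± 0.07. Among named genes well above background on all 5 arrays and with no disagreeing probes, Nlrp1c-ps, Pde5a, COX1 and S100a7l2 were the other 4 of the 5 largest falls of this kind, with differences from -5.06 to -2.52. Cyp2g1, Krtap7-1, Kcnip1 and Kcns3 were, with Saa3, the 5 largest rises under the same conditions, with differences from 2.44 to 4.30.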

How the data were processed

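Scanner files held spot values as intensity, background-subtracted and detrended within each array but not scaled between arrays, per the file headers (Agilent Feature Extraction 10.7.3.1; 10.5.1.1 per the submitters' processing notes). The authors' deposited log2 table, normalised with limma per the labels' protocols, was used only as an alternative. Of 59305 non-control spots on 56605 probes, 60.1% to 65.7% were well above background per array, which sets the depth. Precision is limited by how few arrays there are.

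Log2 values of the processed intensity were quantile normalised with limma 3.58.1 (R 4.3.3). A probe stayed in if 2 or more arrays read it well above background, which left 37125 after 235 with an outlier flag were dropped, and each of 24080 genes was read on its brightest probe. Contrasts of 10 group means were tested with lmFit and eBayes, with 2 residual degrees of freedom from the repeat Card14-/- and Tlr7-/-Tlr9-/- arrays. Single arrays are assumed to vary like these. In a test on simulated data for this contrast over 24080 genes, 51 of 100 genes changed by 1.5 log2 units and 68 of 100 changed by 2 were called. A further 9 unchanged genes were called as well. The simulated noise had the residual spread of this fit, independent between arrays, with no variation between pools or slides. The simulation therefore cannot tell how many calls of the real contrast come from pools or slides. Probe positions are on mm9.

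Named genes were the 12 largest mostly treated calls each way that were well above background on all 5 arrays, the 5 largest each way with 1 treated side below background, the 5 largest each way mostly in the untreated arrays and well above background on all 5, and up to 4 members of each of 34 lists. Members and lists were chosen with earlier results of these data known. Values of a few of these genes are not reported here. Tables and figures were made with Python 3.11.15, numpy 2.4.6, pandas 2.3.3 and matplotlib 3.10.9. Alternatives covered scaling, background, filters, probe choice, arrays, comparator, prior and slide.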

Additional observations from a re-analysis of the deposited data

Results flagged for a closer look

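The responses of Card14-/- and WT skin to IMQ differed by a test of the difference itself for 1243 genes with a higher and 1285 genes with a lower response in Card14-/-. Without any 1 of the 4 repeat arrays, or with the 5 arrays of the contrast alone, limma called 0 genes, with 9377 to 10273 genes at an unadjusted p under 0.05. Every group of the series holds 1 or 2 arrays, so single arrays within a group were not compared.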

How the results depend on the processing

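No paired analysis was possible because the groups compared share only replicate number 1. The main fit called 1243 genes higher and 1285 lower, of which 1054 and 1067 were mostly treated. Counts beyond 1.5 times these, given as higher and lower calls and then as mostly treated higher and lower, were as follows. Scaling to the 75th percentile gave 775 higher and, mostly treated, 636 higher. Normexp background correction gave 440 higher, and 370 mostly treated. The deposited table gave 712 higher, and 602 mostly treated. The slide block gave 41 and 81, then 38 and 65. The mean of WT and Tlr9-/- as comparator gave 0 and 2, then 0 and 0. A treated share over 0.75 left 684 lower genes. The 5 arrays alone gave 0 and 0, then 0 and 0, with 10273 genes at an unadjusted p under 0.05, and leaving out each repeat array gave between 0 and 0 calls throughout, with 9377 to 10273 such genes. These fits have 1 residual degree of freedom. The cause of the other changes was not tested.

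Directions turned as follows. Scaling to the 75th percentile turned the treated parts of Kcns3 (-0.17), Hmox1 (0.043) and Il6 (-0.095), whose differences lay mostly in the untreated arrays. The mean of WT and Tlr9-/- as comparator turned the differences of Cxcl9 (0.35), Gbp2 (0.35) and Il1b (-0.15), and the median of the interferon-stimulated genes (0.23). The median over probes turned Ikbkg (-0.26) and Traf6 (0.28, treated part 0.50). The slide block turned the differences of Krtap1-3 (-0.077), Csta2 (-1.11), Cyp2g1 (-4.57), Krtap7-1 (-0.56), S100a7l2 (5.02), Tlr7 (-1.66), Ccl20 (-0.0047), S100a7a (-0.11), Klk7 (-0.23), Dsg4 (-1.26), Krt34 (-0.76), Krt86 (-1.28) and Krtap4-16 (-0.81). It turned the treated parts of Krtap1-3 (-1.04), Csta2 (-1.81), Secisbp2l (-0.49), E2f4 (-0.60), Saa3 (-1.83), Cyp2g1 (-6.85), Kcnip1 (-0.24), Krtap7-1 (-2.54), Nlrp1c-ps (0.51), S100a7l2 (6.89), Ccl20 (-0.81), S100a7a (-1.69), Klk7 (-0.73), Dsg4 (-2.37), Krt34 (-1.42), Krt86 (-1.91) and Krtap4-16 (-1.32). That fit takes the responses of Tlr7-/- and Tlr7-/-Tlr9-/- skin as equal and draws on the Tlr7-/- pools, which differed in sex-linked and hair genes. The values of S100a7a, Dsg4 and E2f4 rest in part on arrays below background and are not to be read as sizes.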

Other observations

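Calls in lists for other cell types and programmes of the ear are set against 5.16% higher and 5.34% lower calls over all genes. Of 24 Toll-like receptor and adaptor genes, 0 were called higher and 3 lower. Endothelial markers had 2 higher and 1 lower call among 15, with a median treated part of -0.65, negative in 13 of them. Cartilage genes, which whole ear includes, had 1 higher and 2 lower calls among 10, with a median response difference of -0.56. Adipocyte markers had 0 higher and 2 lower calls among 15. Circadian clock genes had 1 higher and 3 lower calls among 19. No gene was called among 14 EGF receptor ligands and receptors, 12 basal keratinocyte genes or 13 Schwann cell and nerve genes. Of 17 neutrophil markers, 6 were called higher and 1 lower, and the median untreated part of 0.62 was larger than the median treated part of 0.05.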
